A study of Mus musculus with 6 samples.

Results

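Histone chaperones are proteins that carry histones and place them on DNA or take them off it, without being part of the nucleosome themselves. The transcripts of 10 of their genes were followed here: Supt16 and Ssrp1, the subunits of FACT; Chaf1a and Chaf1b, the large and middle subunits of CAF-1; Asf1a, Asf1b and Nasp, which hold soluble H3 and H4; Hira; and the nucleoplasmins Npm1 and Npm2. They were found by gene symbol among the 25353 genes of the deposited table, and all 10 had a row and passed the filter on low values. The list was chosen on the KO against WT difference of these libraries, with Supt16 already known to be lower in KO, so the values of the 10 genes in that comparison are given as a description, without p-values.

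The cells were mouse GV (germinal vesicle) oocytes, grown oocytes arrested in meiotic prophase that store maternal transcripts. The groups were 3 libraries labelled KO and 3 from wild-type (WT) mice, all C57BL/6J and each made from 5 pooled oocytes. Mice were 8 weeks old by the protocol text, although the age field reads P1. The deletion is given as Mfn2-/- in the title and design of the series and as Mfn1-/- in the genotype field of the samples, and no Cre driver is named. Mitofusins are the outer membrane GTPases that fuse mitochondria. Nothing ties a pool to its own mouse, so all errors measure the spread between these pools, which may be technical.

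Mfn2 stood at 5.25, 5.28 and 4.50 normalized read counts in the KO libraries and at 25.5, 38.1 and 32.3 in the WT libraries, and Mfn1 at 379 to 398 in KO and 298.5 to 363 in WT. Libraries held 6450191 to 7992598 reads on genes, with 19481 to 20102 genes detected. All 12 oocyte markers were present, with summed normalized counts of 136073 to 176352 in KO, lowest in KO replicate 1, and 172869 to 203600 in WT, and 1 of the 12, Nlrp5, was called lower. Markers of theca and stroma, immune, granulosa and cycling somatic cells had lower sums in every KO library than in any WT library. The 8 theca and stroma markers in the table summed to 12.6 to 16.9 in KO and 48.4 to 773 in WT, and 3 of the 8 were called lower (Cyp11a1, Lhcgr and Dcn). Cyp11a1 had 3.15, 5.28 and 4.50 in KO and 604, 13.9 and 92.3 in WT, so much of the WT sums came from 1 gene. Of the 8, 4 stayed under 10 in all libraries. The 6 immune markers summed to 37.8 to 47.5 in KO and 113 to 133 in WT, and 1 was called lower. The 12 granulosa markers summed to 384 to 491 in KO and 492 to 679 in WT, and the 5 endothelial markers to 168 to 260 in KO and 196 to 250 in WT, with no call in either list and overlapping endothelial sums. The 4 markers listed for cycling somatic cells, of which Pcna is also on the list of replication fork genes, summed to 3450 to 3633 in KO and 3685 to 4031 in WT, and 1, Top2a, was called lower. Their sum was above the granulosa sum in every library, and whether these 4 transcripts came from the oocytes or from other cells was not tested. The part of cells other than oocytes in the values below was not tested, except where a value is given.

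As background, FACT loosens a nucleosome by drawing off histones H2A and H2B ahead of RNA and DNA polymerases and puts them back behind. CAF-1 deposits new H3 and H4 at replication forks, whereas HIRA places an H3 variant outside replication, and ASF1 passes H3 and H4 to both. The oocyte keeps a large maternal store of such proteins, and nucleoplasmin encoded by Npm2 is a maternal-effect protein that organises chromatin and nucleoli in the oocyte and early embryo.

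Among the 10 transcripts, Supt16 had the largest difference between the groups and its FACT partner Ssrp1 a far smaller one. Both CAF-1 subunits and Nasp were modestly lower in the KO libraries, and Asf1a, Asf1b, Npm1 and Npm2 overlapped between the groups. Of the 10 genes, 7 had a log2 fold change below 0 and 3 above 0, with a median of -0.18, beside -0.01 over all 18762 tested genes. In 4 genes the KO values all lay below the WT values (Supt16, Chaf1a, Chaf1b and Nasp), as they did in 11.7% of all tested genes; in 11.5% the KO values all lay above, which makes 23.2% without overlap in either direction. By limma at an adjusted p under 0.05, 1 of the 10 was called, Supt16, beside 1.41% of all tested genes called lower, 1.87% called higher and 3.28% called in either direction. On the recovered reads edgeR and DESeq2 also called 1 of the 10, Supt16, beside 6.03% of genes tested in edgeR and 6.84% in DESeq2. Since the list was chosen with this difference known, nothing is read from these counts.

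**Figure D1:**
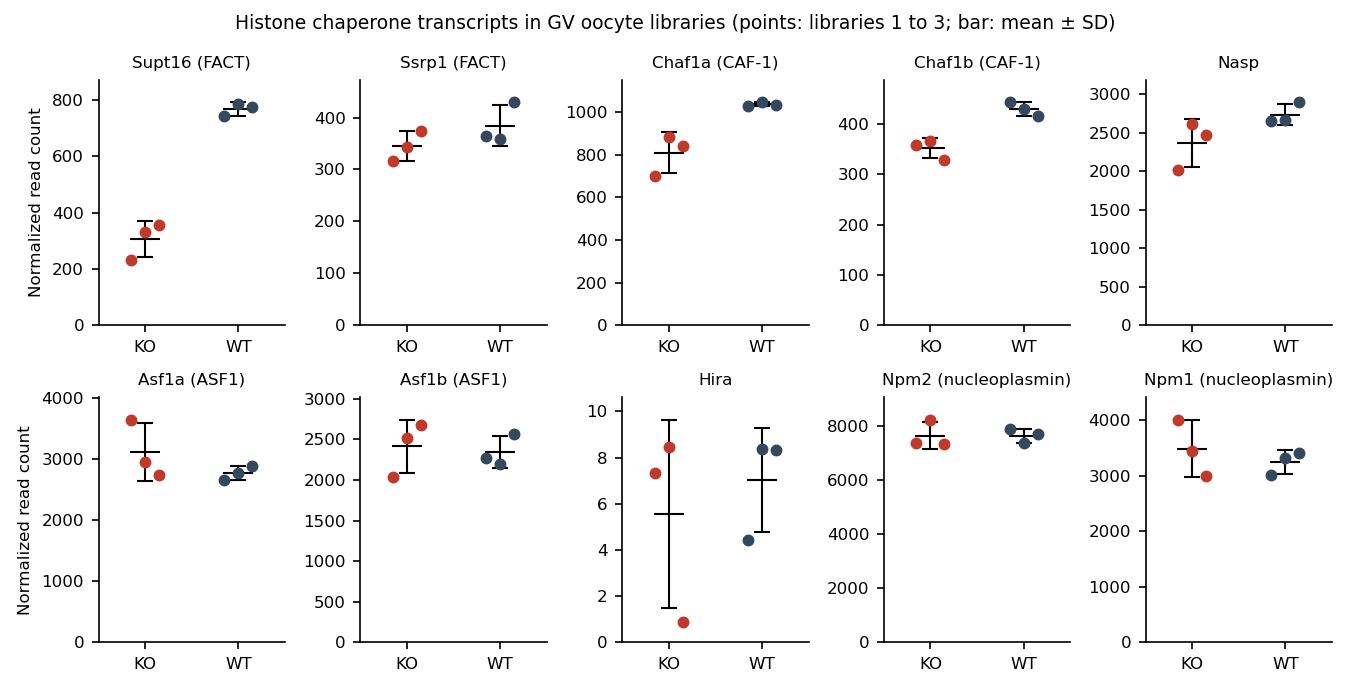
Normalized read counts of the 10 histone chaperone genes, with KO libraries on the left and WT libraries on the right of each panel, points for libraries 1 to 3 and bars for the mean and SD. Supt16 lies between 233 and 354 in KO and between 742 and 787 in WT, and Npm2 between 7334 and 8254 in KO and between 7379.75 and 7886 in WT, which overlap.

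Supt16 encodes the large subunit of FACT, which grips the H2A and H2B pair (chromosome 14, 52160414 to 52197416, minus strand, GRCm38). Its normalized read count was 233, 331 and 354 in KO replicates 1 to 3, against 742, 787 and 777 in WT replicates 1 to 3. Every KO library was below every WT library, and the KO mean was 39.8% of the WT mean. The KO mean was 306 ± 64.2 and the WT mean 768 ± 23.5 (SD, n = 3 each), so the KO libraries varied more among themselves (coefficient of variation 20.98%) than the WT libraries (3.06%). The values rest on 222 to 394 reads in KO and 669 to 846 reads in WT. The log2 fold change was -1.35 (SE 0.15), and 1.54% of tested genes had a lower one. In pooled material, fewer cells of a type and less RNA per cell cannot be told apart.

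KO replicate 1, which had the lowest sum of oocyte markers, was also the lowest for Supt16. Without it the log2 fold change of Supt16 was -1.16, and without KO replicate 3 it was -1.46. WT replicate 2, which had the smallest sum of theca and stroma markers in its group (48.4), had the highest Supt16 value, and WT replicate 1, with the largest sum (773), the lowest. Cyp11a1 alone made up 604 of that largest sum, and the smallest immune sum in WT (113) was in WT replicate 3. The WT values of Supt16 lay close together (742 to 787), and the part of other cells in them was not tested. Supt16 was called under each of the 16 other ways of processing the values, among them limma without WT replicate 1 and limma without WT replicate 2. Of all genes tested, 0.61% (limma without WT replicate 3) to 6.84% (DESeq2) were called under them. Supt16 was chosen with this difference known, so its calls are a description.

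**Figure D2:**
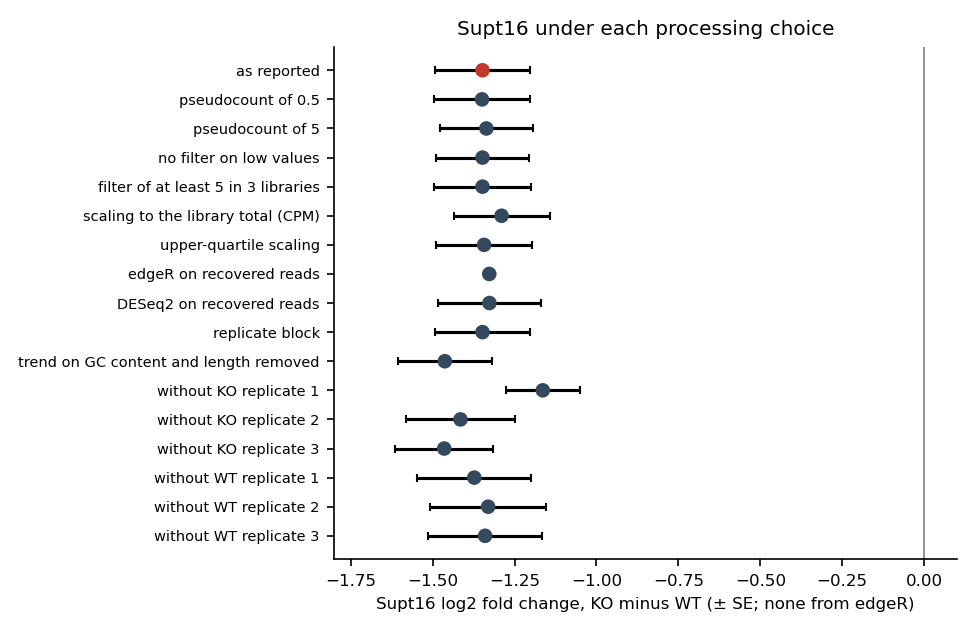
Log2 fold change of Supt16, KO minus WT, with its SE, as reported and under 16 other processing choices, 1 per line. All values lie between -1.46 and -1.16, and the value without KO replicate 1 is nearest to 0.

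Part of Supt16 lies opposite another gene. Its exons share 21% of their bases with exons of Rpgrip1, a ciliary gene on the plus strand, and the library kit keeps no strand. Rpgrip1 had 7.35, 14.8 and 14.4 normalized read counts in KO and 12.2, 14.9 and 7.39 in WT, and its groups overlapped. How reads in the shared exons were assigned is not given. The part of Rpgrip1 reads in the Supt16 counts was not tested.

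Ssrp1 encodes the small subunit of FACT, which carries an HMG box that binds DNA (chromosome 2, 85037234 to 85047109, plus strand). It had 316, 343 and 375 normalized read counts in KO, against 364, 359 and 429 in WT. KO replicate 3 was above WT replicates 1 and 2, so the groups overlapped. The KO mean was 345 ± 29.4 and the WT mean 384 ± 39.4 (SD, n = 3 each), with a log2 fold change of -0.15 (SE 0.13). Leaving out WT replicate 3 brought it to -0.07 and leaving out KO replicate 3 to -0.22.

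Per kilobase of transcript, the ratio of the 2 FACT transcripts differed between the groups. Supt16 was chosen with its difference known, so this ratio is a description. The ratio of Supt16 to Ssrp1 in reads per kilobase was 0.432, 0.564 and 0.554 in the KO libraries and 1.20, 1.28 and 1.06 in the WT libraries. It was under 1 in each KO library and over 1 in each WT library, at 0.517 ± 0.0734 in KO and 1.18 ± 0.113 in WT (SD, n = 3 each). Its place above or below 1 depends on the lengths used, 4673 bases for Supt16 and 2739 bases for Ssrp1. It also depends on how reads in exons shared with Rpgrip1 were counted, which is not given. The ratio of Chaf1a to Chaf1b was 0.801 ± 0.11 in KO and 0.837 ± 0.03 in WT, that of Asf1a to Asf1b 1.08 ± 0.328 in KO and 0.964 ± 0.0542 in WT, and that of Npm2 to Npm1 3.65 ± 0.55 in KO and 3.88 ± 0.364 in WT. In these 3 pairs the groups overlapped. The GENCODE M21 transcript of Chaf1a runs past the end in the deposited table, so its values per length may be too low in both groups. Ratios within a library do not depend on its scaling, but alone they do not show which of the pair differed. For the FACT pair the log2 fold change was -1.35 for Supt16 and -0.15 for Ssrp1.

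**Figure D3:**
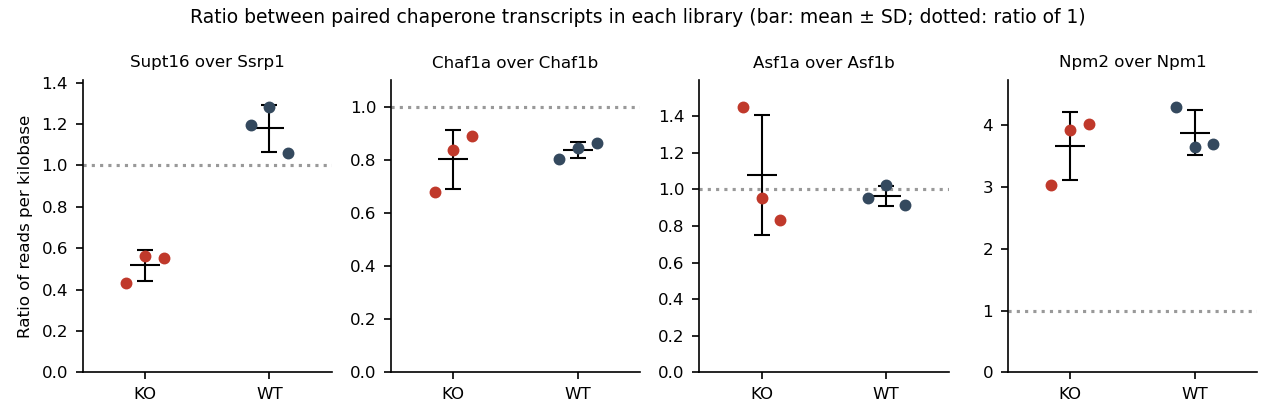
Ratio of reads per kilobase between 2 chaperone transcripts within each library, with KO on the left and WT on the right of each panel and bars for the mean and SD. The Supt16 to Ssrp1 ratio is 0.432 to 0.564 in KO and 1.06 to 1.28 in WT, and the other 3 ratios overlap.

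The stretches just upstream of the annotated starts are shown for the FACT and CAF-1 subunits, the pairs whose members form one complex (RefSeq promoters, GRCm38.p6, written 5′ to 3′ on the strand of the gene and lying upstream of its exons in GENCODE M21). Ssrp1 has a start upstream of the one in the deposited table, and the stretch before that start is shown. Capitals mark an E-box, CCAAT box or SP1 site found by its letters on either strand.
Supt16, chr14:52197417-52197489, minus strand: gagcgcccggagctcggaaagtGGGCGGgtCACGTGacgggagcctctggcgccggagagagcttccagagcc
Ssrp1, chr2:85037000-85037119, plus strand: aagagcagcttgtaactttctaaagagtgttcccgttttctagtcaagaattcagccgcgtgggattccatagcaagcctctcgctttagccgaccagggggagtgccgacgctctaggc
Chaf1a, chr17:56040296-56040415, plus strand: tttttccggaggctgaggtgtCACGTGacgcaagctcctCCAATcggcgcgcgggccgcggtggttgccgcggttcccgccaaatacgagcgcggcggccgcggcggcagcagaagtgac
Chaf1b, chr16:93883781-93883900, plus strand: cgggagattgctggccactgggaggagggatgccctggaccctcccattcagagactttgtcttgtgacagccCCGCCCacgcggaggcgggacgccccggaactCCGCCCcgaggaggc

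Of the 10 genes, 8 had a promoter in the RefSeq table. In the 250 bases upstream, all were richer in CpG than most promoters: the observed over expected CpG ratio was 0.72 for Chaf1b, the lowest, and 1.20 for Chaf1a, the highest, with 1.11 for Supt16, against a median of 0.373 over 32817 promoter windows. The E-box CACGTG was in 2 of the 8 (Supt16 and Chaf1a) and in 6.02% of all windows. The SP1 letters GGGCGG were in 6 (Supt16, Ssrp1, Asf1a, Asf1b, Hira and Chaf1b) and in 32.7% of all windows. The CCAAT box was in 4 (Asf1a, Asf1b, Chaf1a and Nasp) against 33.8%, and the ETS letters CCGGAAG in 3 (Supt16, Hira and Chaf1b) against 6.9%. None of the 8 held the letters searched for E2F (TTTNGCGC, 1.13% of windows), NRF1 (3.73%), YY1 (AANATGGCG, 1.12%), CRE (TGACGTCA, 1.55%) or the TATA box (TATAAA, 12.4%), which says only that these letters are not in this window.

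Chaf1a and Chaf1b encode the large and middle subunits of CAF-1, and both were lower in each KO library than in each WT library. Chaf1a (chromosome 17, 56040416 to 56068026, plus strand) had 702, 884 and 842 normalized read counts in KO, against 1027, 1045 and 1034 in WT. The coefficient of variation was 11.8% in KO and 0.891% in WT. The log2 fold change was -0.36 (SE 0.11), and -0.26 without KO replicate 1. Chaf1b (chromosome 16, 93883901 to 93906115, plus strand) had 359, 367 and 329 in KO, against 444, 430 and 416 in WT, with a log2 fold change of -0.29 (SE 0.12). Its KO mean was 81.8% of the WT mean and that of Chaf1a 78.2%. Within the span given in the table, 13.5% of the exonic bases of Chaf1a also belong to Ubxn6 on the other strand, which had 115 to 172 in KO and 96.0 to 130 in WT. The remaining CAF-1 subunit is encoded by Rbbp4, which also serves in other complexes. Looked at after its values were seen, it had 229, 177 and 156 in KO and 149, 215 and 167 in WT, and these overlapped.

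Nasp encodes the chaperone that protects the soluble pool of H3 and H4 (chromosome 4, 116601052 to 116627941, minus strand). It had 2020.0, 2616 and 2475 normalized read counts in KO, against 2653, 2659 and 2895 in WT. KO replicate 1 was the lowest, and KO replicate 2 lay just under the WT libraries. The log2 fold change was -0.21 (SE 0.11), and -0.10 without KO replicate 1. Scaled to library totals instead, KO replicate 2 lay above WT replicate 1, so the separation of Nasp depended on the scaling.

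Asf1a and Asf1b encode the ASF1 proteins, of which in mammals the first is linked mainly to HIRA and the second to proliferation. Asf1a (chromosome 10, 53596757 to 53609225, plus strand) had 3650.25, 2955 and 2749.95 normalized read counts in KO, against 2667, 2767 and 2895 in WT. KO replicate 1 was above every WT library and the other KO libraries were within or close to the WT range, and the log2 fold change of 0.16 (SE 0.11) was 0.04 without KO replicate 1. It was 0.03 once trends with GC content and length were removed. Mcm9, on the other strand, shares 48.0% of the exonic bases of Asf1a and had 298 to 370 in KO and 349 to 395 in WT. Asf1b (chromosome 8, 83955507 to 83970197, plus strand) had 2041, 2519 and 2678 in KO, against 2271, 2198 and 2568 in WT, where KO replicate 1 was the lowest of the 6. Its log2 fold change was 0.03 (SE 0.12), and the sign turned without KO replicate 3 (-0.05), KO replicate 2 (-0.002) or WT replicate 2 (-0.01).

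Npm2 and Npm1 were the most abundant members. Npm2 (chromosome 14, 70647302 to 70659244, minus strand) had 7394, 8254 and 7334 normalized read counts in KO, against 7886, 7379.75 and 7701 in WT. The means were 7660.3 ± 515 in KO and 7656 ± 256 in WT (SD, n = 3 each), and the log2 fold change was 0.00 (SE 0.10), between -0.06 and 0.07 under the other ways of processing. Npm1 encodes nucleophosmin, the abundant chaperone of the nucleolus (chromosome 11, 33152287 to 33163206, minus strand). It had 4009, 3447 and 2989 in KO, against 3007, 3324 and 3414 in WT, with a log2 fold change of 0.09 (SE 0.11), or -0.02 without KO replicate 1, the highest library. Windows of 75 bases match other annotated genes over 46.0% of the Npm1 transcript, with 10 such genes and Gm9118 the most frequent, so its counts are uncertain.

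Hira encodes the subunit that gives the HIRA complex its name (chromosome 16, 18877037 to 18970309, plus strand), and it was barely detected. It rested on 7, 8 and 1 reads in KO and 4, 9 and 9 reads in WT, or 7.35, 8.45 and 0.899 normalized read counts in KO and 4.44, 8.37 and 8.31 in WT. The groups overlapped, and the log2 fold change of -0.55 (SE 0.62) was 0.19 without KO replicate 3, which had 1 read. No difference was detectable at this depth. The same-strand model Gm28539 covers 44.7% of the exonic bases of Hira and 63.3% of its 75-base windows. How the authors assigned reads shared by 2 models is not given in the sources used here, so the low value may not be the level of the transcript.

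**Figure D4:**
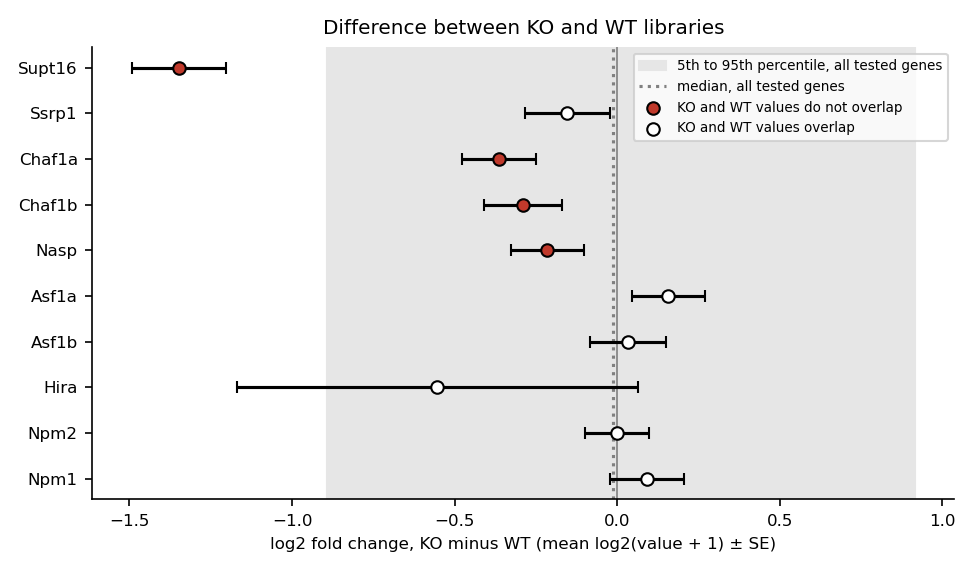
Log2 fold change, KO minus WT, with its SE for each histone chaperone gene, filled where KO and WT values do not overlap, over the 5th to 95th percentile of all tested genes (shaded, -0.89 to 0.92) and their median (dotted). Supt16 lies outside the shaded range at -1.35, and the wide bar of Hira reflects its few reads.

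Levels of different genes were compared per length, as RPKM, the reads per kilobase of the longest coding transcript scaled to the library total. Npm2 was highest, at 1072, 1182 and 1074 in KO and 1106, 1044 and 1047 in WT, above 99.6% of coding genes in WT. Npm1 followed, at 267 to 355 in KO and 257 to 287 in WT. Asf1a (182 to 240 in KO and 169 to 178 in WT) and Asf1b (165 to 219 in KO and 173 to 195 in WT) could not be put in order. Nasp came next, at 116 to 148 in KO and 147 to 156 in WT. All 5 of these were above 95.6% or more of coding genes in WT, where the median was 2.98. The ranges of Npm2, Npm1, the ASF1 pair and Nasp did not overlap each other over the 6 libraries.

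CAF-1 and FACT transcripts were lower than these. Chaf1b had 25.01 to 27.2 in KO and 29.4 to 32.3 in WT, and Chaf1a 18.3 to 22.8 in KO and 25.3 to 26.6 in WT. Ssrp1 had 16.7 to 19.99 in KO and 18.5 to 21.2 in WT. Supt16 had 7.22, 10.1 and 11.1 in KO and 22.2, 23.7 and 22.5 in WT. Over all 6 libraries, neighbours among these 4 genes overlapped in range. In WT alone Supt16 lay above Ssrp1 and below Chaf1a in each library, whereas in KO it lay below Ssrp1. This order depends on the transcript lengths used. Hira was last, at 0.0311 to 0.286 in KO and 0.147 to 0.280 in WT.

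**Figure D5:**
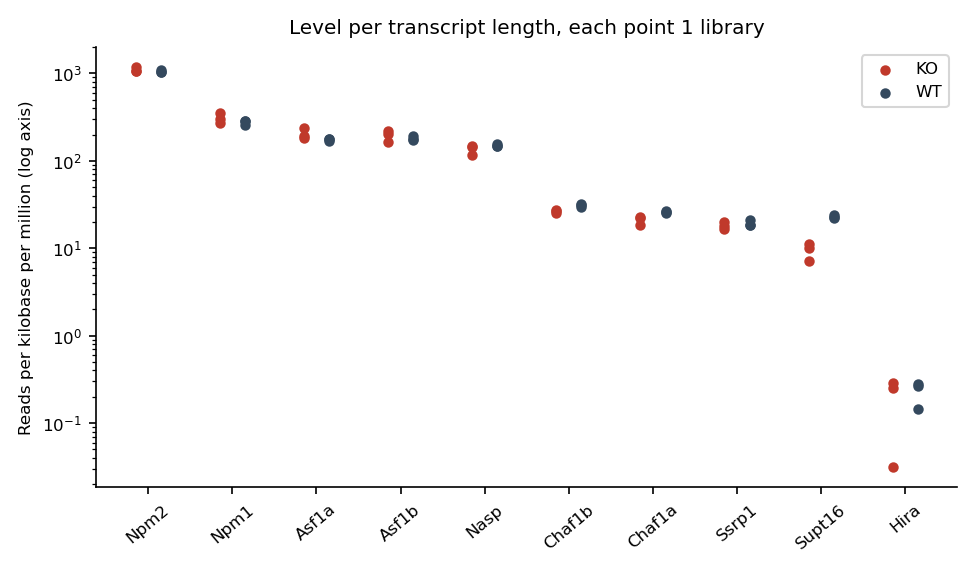
RPKM (log axis) for each gene, with KO libraries left of WT libraries and 1 point per library, in order of the mean over all libraries. Npm2 lies between 1044 and 1182, the H3 and H4 chaperones Asf1a, Asf1b and Nasp between 116 and 240, CAF-1 and FACT between 7.22 and 32.3, and Hira under 0.29.

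The 3′ ends of the transcripts were read because oocytes regulate stored transcripts through cytoplasmic polyadenylation elements (CPEs) near the poly(A) signal, and because the cDNA was primed on poly(A). Sites of 30 bases are shown for the FACT subunits and Asf1b, with CPEs and poly(A) signals in capitals. The CPE searched for was TTTTAT, with TTTTAAT as its longer form and TTTTAAAT as the longest. The poly(A) signal was AATAAA, with ATTAAA as its common variant.
Supt16, ending 15 bases before the transcript end: AATAAActgggatttttttttgttttgttt
Ssrp1, ending 29 bases before the transcript end: TTTTATtttgtatttctggtctgtgaaaac
Asf1b, ending 30 bases before the transcript end: ATTAAAaggTTTTATATTAAAagttttggt

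A CPE lay in the last 100 bases of 2 of the 9 members with a 3′ untranslated region of that length, Ssrp1 and Asf1b, and in 21.1% of 13156 tested coding genes. The letters found in Asf1b adjoin a poly(A) signal. Supt16 had none there and a 3′ untranslated region of 1263 bases, against a median of 1022 over tested coding genes. A match is a description of the annotated sequence, and the transcript ends used in these oocytes were not measured.

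Other histone chaperones were taken from a list of 37 genes, of which 36 were tested, and 1 rose, 2 fell and 33 were not called. That is 8.33% of the list called, beside 3.28% of all tested genes (1.87% higher and 1.41% lower), and 13 of the 36 had an unadjusted p under 0.05 (36.1%), beside 18.0% of all tested genes. The list's median log2 fold change was -0.11 and 24 of 36 lay below 0, against 51.3% of all tested genes. Tspyl1, a relative of the nucleosome assembly proteins, rose by 0.71 in log2 units (SE 0.16, limma adjusted p = 0.0257), with 242, 184 and 184 normalized read counts in KO and 119, 121 and 128 in WT. Ncl, which encodes nucleolin, a nucleolar protein with histone chaperone activity, fell by 0.47 (SE 0.11, limma adjusted p = 0.032), with 4288, 5435 and 4958 in KO and 6396, 6429 and 7445 in WT. Anp32a, an acidic nuclear phosphoprotein, fell by 0.98 (SE 0.25, limma adjusted p = 0.0451), with 30.5, 62.3 and 45.9 in KO and 92.0, 92.1 and 81.3 in WT. Each was higher or lower in every KO library than in every WT library, as were 23.2% of all tested genes. These calls were fragile: in limma 0 of the 36 were called without WT replicate 2 or WT replicate 3. Of all tested genes, 1.03% and 0.61% were called in those fits, so calls were fewer there in general. In each fit 11 of the 36 (30.6%) had an unadjusted p under 0.05. That stood beside 15.0% of all tested genes without WT replicate 2 and 14.1% without WT replicate 3. Without WT replicate 1, 1 of the 36 was called, beside 1.45% of all tested genes.

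The partners of HIRA and the other H3 variant chaperone were looked at by name after their values were seen. Ubn1, a HIRA subunit, had 277, 228 and 255 normalized read counts in KO, against 359, 325 and 338 in WT (log2 fold change -0.43, SE 0.13, limma adjusted p = 0.0888). Cabin1, also of that complex, had 252, 204 and 308 in KO, against 357, 352 and 339 in WT (-0.47, SE 0.15, limma adjusted p = 0.0959). Neither passed the test. The KO values of both lay below the WT values, as they did in 11.7% of all tested genes. Ubn2, the relative of Ubn1, had 354 to 400.2 in KO and 391 to 407 in WT. Atrx had 2419, 2833 and 3058 in KO, against 3636, 3217 and 3454 in WT (-0.32, SE 0.11, limma adjusted p = 0.126). Its groups did not overlap either, and it did not pass the test. Its partner Daxx had 78.2 to 87.2 in KO and 55.4 to 110 in WT, which overlapped, as did those of Ubn2. Npm3, the remaining nucleoplasmin gene, was near the limit of detection, with 3 to 6 reads in KO and 6 to 12 in WT.

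FACT works with the machinery of RNA polymerase II elongation, for which a list of 28 genes was tested. Of these, 1 rose, 1 fell and 26 were not called, or 7.14% called beside 3.28% of all tested genes, with a median log2 fold change of -0.06. In 12 of the 28 the unadjusted p was under 0.05 (42.9%), beside 18.0% of all tested genes. Polr2b, the second largest subunit of RNA polymerase II, fell by 0.70 (SE 0.11, limma adjusted p = 0.00487), with 523, 612 and 556 normalized read counts in KO and 922, 884 and 931 in WT, and it was called in all 6 fits that left out a library. Wdr61, a subunit of the PAF1 and SKI complexes, rose by 1.26 (SE 0.22, limma adjusted p = 0.00674), with 194, 229 and 354 in KO and 108, 132 and 79.4 in WT. Without WT replicate 3 it was no longer called (limma adjusted p = 0.0556). Dnaja4, on the other strand, shares 33.9% of the exonic bases of Wdr61.

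At replication forks CAF-1, ASF1 and FACT take part in handing over histones, and of 27 fork genes 3 fell, 24 were not called and none rose in limma, where 7 had an unadjusted p under 0.05. The falls were 11.1% of the list, beside 1.41% of all tested genes, and the 7 were 25.9%, beside 18.0%. The sum of the markers listed for cycling somatic cells was also lower in every KO library (3450 to 3633, against 3685 to 4031 in WT). Whether those transcripts came from the oocytes or from other cells was not tested, nor was the part of other cells in these falls. In edgeR 3 fell, in DESeq2 4 fell, and none rose in either. Of all genes, edgeR called 6.03% and DESeq2 6.84%, in either direction. The median log2 fold change over the list was -0.04. Pola1, the catalytic subunit of the polymerase that starts each strand, fell by 0.69 (SE 0.13, limma adjusted p = 0.00959), with 256, 302 and 294 normalized read counts in KO and 427, 478 and 469 in WT. Clspn, which encodes the fork protein claspin, fell by 0.67 (SE 0.12, limma adjusted p = 0.0102), with 403, 465 and 507 in KO and 658, 737 and 788 in WT. Rfc1, the large subunit of the loader of the PCNA clamp, fell by 0.44 (SE 0.10, limma adjusted p = 0.0304), with 742, 774 and 774 in KO and 1035, 1008 and 1067 in WT. Without WT replicate 2 or WT replicate 3 limma called 0 of the 27, beside 1.03% and 0.61% of all tested genes. In those fits 7 (25.9%) and 5 (18.5%) had an unadjusted p under 0.05, beside 15.0% and 14.1% of all tested genes. Mcm2, a helicase subunit that itself binds H3 and H4 and stands on both lists, had 342, 494 and 485 in KO, against 631, 541 and 677 in WT (-0.50, SE 0.15, limma adjusted p = 0.0754). Mcm2 was called lower in DESeq2 (DESeq2 adjusted p = 0.0413) and not in edgeR (edgeR adjusted p = 0.0657).

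The 5 coding genes whose log2 values followed Supt16 most closely over the 6 libraries, among 6375 with a mean of at least 100, were Vkorc1 (Pearson r = 0.997), Dicer1 (0.995), Mcrip2 (0.994), Casp8ap2 (0.992) and Ddx42 (0.992). All 6 libraries share the split into KO and WT, so these r values are a description of a common difference between the groups. Casp8ap2 had a mean of 1306 ± 103 in KO and 2139 ± 69.5 in WT, and Dicer1, the ribonuclease of small RNA processing, 1710.5 ± 123 in KO and 2260.2 ± 46.0 in WT (SD, n = 3 each). The difference was smaller in all 5 than in Supt16, with KO means at 61.0% to 82.3% of the WT means. Of the other members, Chaf1a had an r of 0.963 with Supt16 (83rd of the 6375), Chaf1b 0.858, Nasp 0.817 and Ssrp1 0.690, whereas Asf1a had -0.718 and Npm1 -0.513.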

How the data were processed

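Poly(A)-primed Smart-Seq2 cDNA from pooled oocytes was made into Nextera XT libraries and read as 75-base pairs, per the labels' protocols. The submitters' processing notes list GRCm38 and mm10 as builds and STAR, cutadapt, FastQC, DESeq2 and DESeq as tools; the gene models counted are not given here. The authors deposited normalized read counts, a signal in which reads are divided by a size factor per library; the file header names Partek and DESeq2. Each column is a whole multiple of 1 read (0.899 to 1.11), and whole reads were recovered for 100% of values above 0 (tolerance 0.1 reads). Where no read was seen, up to 3 may have been missed, by counting error alone.

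The design named an edgeR test for raw counts and limma-trend for normalized values, so the second was used. The 18762 genes that reached 1 in 3 or more libraries were compared as log2(value + 1) with limma 3.58.1 (R 4.3.3), KO minus WT, without covariates, Benjamini-Hochberg adjusted at 0.05; fold changes on this scale understate low genes. edgeR 4.0.16 on recovered reads called 789 of 13078 genes and DESeq2 1.42.0 called 827 of 12082 with an adjusted p. The fits were tested on simulated data.

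The members and the 3 gene lists were chosen with earlier results of these data known. Named genes were the members, Mfn1, Mfn2, genes overlapping a member, up to 4 called genes per list by smallest p, and the 5 genes most like Supt16. Outside that rule, Ubn1, Ubn2, Cabin1, Daxx, Atrx, Rbbp4, Npm3 and Mcm2, partners or relatives of members, were named after their values were seen, as were the markers named. Positions are those of the table on GRCm38 less the 1 base by which its ends exceed GENCODE M21 in 95.6% of matched genes (95.3% of all matched). Lengths and exons are from GENCODE M21, and the span of Chaf1a in the table is shorter than there. Windows of 75 bases every 25 bases were aligned to all transcripts with minimap2 2.31-r1302, and at most 1 mismatch counted as shared. Same-numbered KO and WT libraries did not deviate together (correlations -0.0766, -0.0176 and -0.0357), so no sign of pairing by number was seen. With 3 libraries per group this cannot exclude pairing.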

Additional observations from a re-analysis of the deposited data

How the results depend on the processing

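Supt16 was called lower under each of the 16 alternatives, and no other of the 10 chaperone genes was called under any. Supt16 was chosen with this difference known, so these calls are a description. Its log2 fold change stayed between -1.46 and -1.16. Among all tested genes, 351 were called higher and 264 lower in KO. Leaving out 1 library gave 71 to 459 higher and 41 to 430 lower. A replicate block gave 246 and 175, although no sign of pairing by number was seen. Scaling to library totals gave 488 higher and 176 lower (73.5% rises, against 57.1%), and removing the trend on GC content and length gave 289 and 336 (46.2%). Of the other histone chaperones 3 were called, 1 with the replicate block, 5 with the GC and length trend removed, and 0 to 3 without 1 library. Elongation genes gave 1 to 2 calls and replication fork genes 0 to 3 without 1 library, beside 2 and 3. Of all tested genes 3.28% were called as reported, 2.24% with the replicate block and 3.45% with the GC and length trend removed. Without 1 library that share was 0.61% to 4.94%, so the list counts moved along with it in part. No chaperone gene moved by more than its replicate SD, but Npm2, Asf1b, Npm1 and Hira, none of them called, changed sign under at least 1 alternative. In DESeq2 the lists gave 4, 3 and 4 calls, beside 6.84% of all genes called. Hira was not tested by edgeR, whose filter removed it. The causes were not tested. Depth limits Hira, with at most 9 reads in any library.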

Other observations

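The longest run of letters shared by the upstream windows of Supt16 and Chaf1a was gtCACGTGacg, an E-box with its flanks, which was looked for after both had been seen to be lower in KO. It was in 45 of 32817 promoter windows (0.137%). Of 36 tested genes with it, 1 was called lower in KO (Supt16) and 2 higher, and their median log2 fold change was 0.00. Over the 1107 tested genes with CACGTG in the window, 3.88% were called and the median was also 0.00, beside 3.28% and -0.01 over all tested genes.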
